A study of Rattus norvegicus with 9 samples.

Results

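Megalin and cubilin are very large receptors on the apical membrane of the proximal tubule, where they take filtered proteins, vitamin carriers and drugs out of the primary urine. The 9 genes described here encode that uptake route: the receptors and their partner (Lrp2, Cubn and Amn), the receptor chaperone (Lrpap1), the coat adaptor (Dab2), the ion exchanger and the lipid phosphatase of the endosome (Clcn5 and Ocrl), and the small GTPases of recycling and of delivery to lysosomes (Rab11a and Rab7a). They were chosen by symbol, with earlier results of these data known, from a table of 36267 features of rat kidney RNA. Each of the 9 symbols stood in 1 row, and all 9 passed the filter on low values (at least 1 CPM in at least 3 libraries), which 16731 features passed in all. CPM are counts scaled by the library total, and libraries held 64380578 to 90398405 reads.

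RNA was measured in kidneys of 9 rats of 180 to 200 g, 3 rats in each of 3 groups. Rats of the icariin group received icariin, a flavonoid glycoside of Epimedium plants, into the stomach at 100 mg/kg daily for 3 days. They then went through the contrast protocol, furosemide (a loop diuretic) into the stomach at 200 mg/kg, dehydration for 6 h and iopromide, an iodinated X-ray contrast medium of 370 mg I/mL, at 15 mL/kg by vein. The CIAKI group (contrast-induced acute kidney injury) went through that protocol with no icariin. Control rats had no treatment, so furosemide, dehydration and iopromide are shared by the icariin and CIAKI groups and cannot be told apart from one another in any comparison with control. No group received icariin alone, and the kidneys were removed at a time not given in the sources used here.

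Megalin, the product of Lrp2, is a single-pass receptor whose cytoplasmic tail binds clathrin adaptors. Cubilin has no membrane-spanning segment and depends on amnionless, the product of Amn, to reach the surface and to be internalized. The product of Lrpap1 (receptor-associated protein) shields megalin from early ligand binding in the endoplasmic reticulum. Loss of the chloride-proton exchanger ClC-5 (Clcn5) or of the inositol phosphatase OCRL (Ocrl) causes low-molecular-weight proteinuria in people, as Dent disease and Lowe syndrome.

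Kidney identity was checked on marker genes. Of 24 proximal tubule markers tested, which do not include the 9 genes, 17 were lower and 0 higher in CIAKI than in control kidneys in the limma test (7 did not pass). Their summed level was 25936 to 28298 CPM in icariin, 12031 to 14917 CPM in CIAKI and 25612 to 27275 CPM in control libraries. Podocyte markers were lower in CIAKI for 7 of 7 genes. Their sums were 710 to 909 CPM in icariin, 583 to 611 CPM in CIAKI and 908 to 985 CPM in control libraries. Lymphocyte markers were lower for 5 of 5 tested. The 8 matched by symbol had sums of 14.4 to 24.4 CPM in icariin, 6.01 to 9.49 CPM in CIAKI and 25.8 to 28.8 CPM in control libraries. Of 7 macrophage markers tested 1 was higher and 2 lower. The 8 matched by symbol had sums of 81.9 to 110 CPM in icariin, 54.8 to 89.6 CPM in CIAKI and 95.7 to 104 CPM in control libraries. Erythroid markers were higher in CIAKI than in control kidneys for 4 of 5 genes, and 1 of the 5 was lower in icariin than in CIAKI kidneys. Their sums were 211 to 1446 CPM in icariin, 2133 to 2617 CPM in CIAKI and 252 to 1430 CPM in control libraries. The 4 neutrophil markers reached at most 3.04 CPM in sum in a library. Of 4 distal and connecting tubule markers tested 3 were lower in CIAKI. The 5 matched by symbol had sums of 851 to 1032 CPM in icariin, 821 to 924 CPM in CIAKI and 1443 to 1610 CPM in control libraries. Also lower in CIAKI were 3 of 6 endothelial, 3 of 7 thick ascending limb and 2 of 6 intercalated cell markers. In these lists 0 were higher. Principal cell markers went both ways, 3 higher and 3 lower of 7, as did mesenchymal markers, 1 higher and 2 lower of 6. Of all features tested, 20.5% were lower and 20.8% higher in CIAKI than in control kidneys. In icariin against control kidneys 1 podocyte marker and 1 distal and connecting tubule marker were lower. In that comparison 1 principal cell and 1 endothelial marker were higher. Pvalb, a marker of the distal convoluted tubule, was at 0 in all libraries. In bulk kidney RNA, fewer cells of a type and less RNA per cell cannot be told apart, and the part of these markers in the results below was not tested.

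CIAKI kidneys were first set against control kidneys, for the response of the uptake route to the contrast protocol. In CIAKI kidneys Lrp2, Amn, Lrpap1 and Ocrl fell and Clcn5 and Rab11a rose, while Cubn, Dab2 and Rab7a did not pass the test. The largest differences were those of megalin, its chaperone and amnionless, with levels 2.28-fold, 2.16-fold and 1.98-fold lower in CIAKI. Of the 9 genes, 6 were called at an adjusted p below 0.05 (limma, Benjamini-Hochberg over all features), 4 lower and 2 higher, against 41.3% of all features tested (20.5% lower and 20.8% higher). At an unadjusted p below 0.05 the count was also 6, against 8366 of 16731 features. The groups did not overlap for 6 of 9 genes, against 53.4% of features. The median log2 fold change of the 9 genes was -0.23, against -0.0027 over all features.

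**Figure D1:**
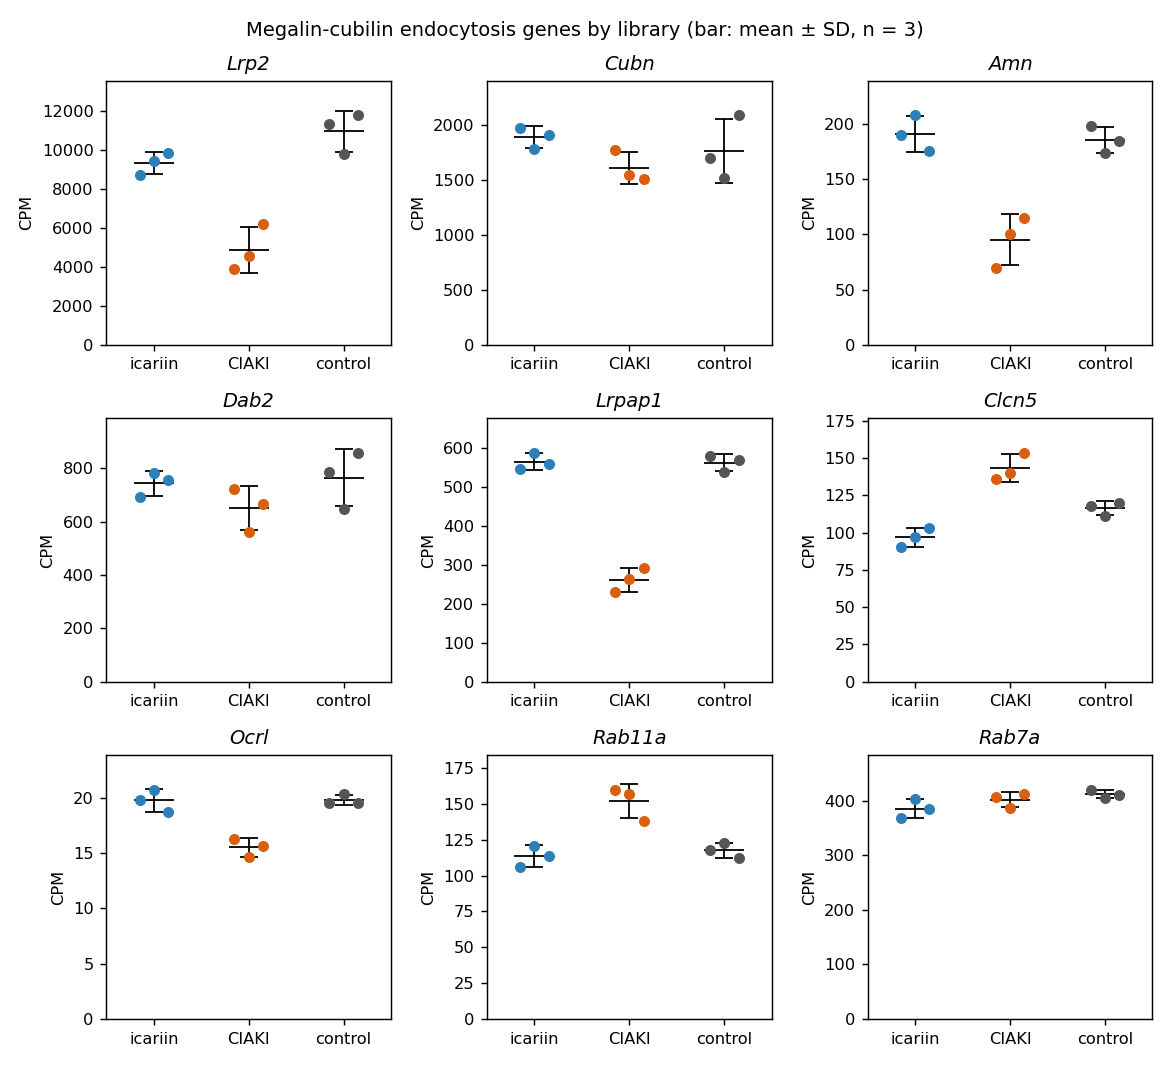
Level of each of the 9 genes in CPM (vertical axes, from 0) in every library of the icariin, CIAKI and control groups; points are libraries and bars the mean ± SD (n = 3). Lrp2, Amn and Lrpap1 sat lowest in the 3 CIAKI libraries, at 3877 to 6196, 69.7 to 115 and 229 to 291 CPM, while Cubn, at 1503 to 1768 CPM, overlapped with its control values.

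Lrp2 (ENSRNOG00000056184) stood at 3877, 4572 and 6196 CPM in CIAKI libraries, against 11338, 9795 and 11793 CPM in control libraries. Each CIAKI value lay below each control value, and the CIAKI values differed more among themselves. The means were 4881 ± 1190 CPM in CIAKI and 10975 ± 1047 CPM in control kidneys (SD, n = 3 each), or 0.488% and 1.10% of all reads. On the log2 scale Lrp2 fell by 1.19 (SE 0.21, adjusted p = 0.00227).

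Amn (ENSRNOG00000009050) stood at 69.7, 101 and 115 CPM in CIAKI libraries, against 198, 174 and 185 CPM in control libraries. Again the groups did not overlap, and CIAKI 1 was the lowest library and CIAKI 3 the highest of its group, as for Lrp2. The log2 fold change was -0.99 (SE 0.16, adjusted p = 0.00147). Lrpap1 (ENSRNOG00000009313) stood at 229, 263 and 291 CPM in CIAKI libraries, against 580, 537 and 569 CPM in control libraries. It had the smallest error of the genes that fell by about 1 or more on this scale, a fall by 1.11 (SE 0.09, adjusted p = 6.47e-05). The CIAKI libraries held the same order in this chaperone gene, CIAKI 1 lowest and CIAKI 3 highest.

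Cubn (ENSRNOG00000029047), which encodes the receptor that travels with megalin and amnionless, stood at 1768, 1541 and 1503 CPM in CIAKI libraries. Control libraries held 1693, 1512 and 2083 CPM, so that the groups overlapped. The log2 fold change was -0.13 with a 95% interval of -0.43 to 0.18 (adjusted p = 0.481). That interval does not reach the value of Lrp2, Amn or Lrpap1. CIAKI 1, lowest in those 3 genes, was highest of its group in Cubn.

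The levels of Lrp2 and Cubn were therefore also set against each other within each library, with 5 pairs of genes chosen after their values were seen. A ratio of CPM values holds the genes' lengths, so only its difference between groups can be read. The Lrp2/Cubn ratio was 2.19, 2.97 and 4.12 in CIAKI libraries, against 6.70, 6.48 and 5.66 in control libraries, a 2.09-fold lower mean on the log scale. The Amn/Cubn ratio was 0.0394, 0.0652 and 0.0765 in CIAKI libraries, against 0.117, 0.115 and 0.0886 in control libraries, 1.82-fold lower. Neither ratio overlapped between the groups. Both had an exact permutation p of 0.1 (two-sided), the smallest that 3 libraries against 3 can give, and 0.15 after adjustment over 15 tests. The Lrpap1/Lrp2 ratio was 0.0592, 0.0574 and 0.047 in CIAKI libraries, against 0.0512, 0.0549 and 0.0483 in control libraries, and overlapped (exact permutation p = 0.6). The difference of its mean was 0.08 on the log2 scale, with SDs of 0.18 in CIAKI and 0.09 in control libraries. The Amn/Lrp2 ratio was 0.0180, 0.0220 and 0.0186 in CIAKI libraries, against 0.0175, 0.0178 and 0.0157 in control libraries. It was 1.147-fold higher in CIAKI with a narrow gap between the groups (exact permutation p = 0.1, adjusted 0.15).

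**Figure D2:**
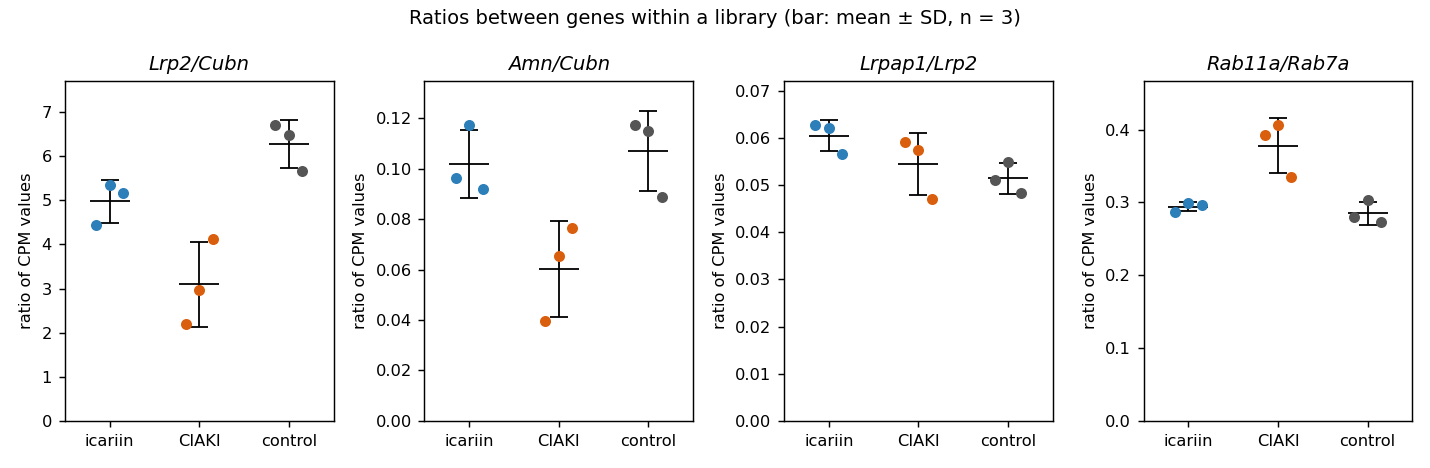
Ratio of the CPM values of 2 genes within a library (vertical axes, from 0) for 4 pairs in icariin, CIAKI and control libraries; points are libraries and bars the mean ± SD (n = 3). The Lrp2/Cubn and Amn/Cubn ratios were lowest in the 3 CIAKI libraries, the Lrpap1/Lrp2 ratios overlapped between CIAKI and control, and the Rab11a/Rab7a ratio was highest in the CIAKI libraries.

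The promoters of the 3 genes with the largest falls and of Cubn are shown for the contrast between them. They run from 250 bases before to 50 bases after the start of the gene, from RefSeq on build GRCr8, 5′ to 3′ on the strand of the gene. RefSeq's table matched 8 of the 9 genes, all but Ocrl. Capitals mark exact matches on either strand to a GC-box (GGGCGG) or an E-box (CACGTG). They also mark exact matches to part of an HNF1 site (GTTAAT), named for a tubule transcription factor, or part of a nuclear receptor site (AGGTCA). No matches overlapped.
Lrp2: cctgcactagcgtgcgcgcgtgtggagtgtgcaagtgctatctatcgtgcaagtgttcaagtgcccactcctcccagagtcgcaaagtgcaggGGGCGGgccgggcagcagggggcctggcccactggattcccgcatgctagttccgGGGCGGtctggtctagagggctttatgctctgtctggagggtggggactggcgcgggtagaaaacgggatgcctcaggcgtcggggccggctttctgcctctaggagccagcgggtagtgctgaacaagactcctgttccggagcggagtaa
Amn: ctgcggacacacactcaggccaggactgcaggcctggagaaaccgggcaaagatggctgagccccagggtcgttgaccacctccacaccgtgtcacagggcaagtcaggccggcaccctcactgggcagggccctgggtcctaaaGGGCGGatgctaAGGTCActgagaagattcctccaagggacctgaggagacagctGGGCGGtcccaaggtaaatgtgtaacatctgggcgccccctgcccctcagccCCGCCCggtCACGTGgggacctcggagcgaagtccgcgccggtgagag
Lrpap1: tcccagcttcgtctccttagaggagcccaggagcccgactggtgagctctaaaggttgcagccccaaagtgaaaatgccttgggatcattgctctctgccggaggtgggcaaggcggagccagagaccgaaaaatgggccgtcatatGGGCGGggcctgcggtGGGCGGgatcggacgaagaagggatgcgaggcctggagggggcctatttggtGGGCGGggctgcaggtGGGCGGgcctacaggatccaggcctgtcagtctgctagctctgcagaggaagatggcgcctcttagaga
Cubn: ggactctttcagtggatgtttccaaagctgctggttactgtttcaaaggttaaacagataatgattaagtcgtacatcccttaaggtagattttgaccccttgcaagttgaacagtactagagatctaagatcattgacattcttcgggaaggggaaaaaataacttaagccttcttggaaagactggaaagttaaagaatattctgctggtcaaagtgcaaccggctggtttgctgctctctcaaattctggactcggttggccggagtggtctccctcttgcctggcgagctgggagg
The Lrp2 window is chr3:74754486-74754785 (minus strand), that of Amn chr6:136132317-136132616 (plus), that of Lrpap1 chr14:79875752-79876051 (plus) and that of Cubn chr17:81501645-81501944 (minus). The windows of Lrp2, Amn and Lrpap1 were 63.3%, 65.0% and 62.3% G or C and held 2, 3 and 4 GC-boxes. That of Cubn was 44.7% G or C, below the median of 51.7% of all promoters, and held none of the searched words. A GC-box stood in 33.1% of 33469 rat promoters and the E-box, found here once in Amn, in 6.42%. The nuclear receptor word, also found once in Amn, stood in 16.2%. The HNF1 word was in none of the 9 windows of the 8 genes and in 7.45% of all promoters. Only exact words were searched, so longer or inexact sites of these factors, in Cubn or elsewhere, were not looked for. Of the windows not shown, that of Rab11a, which rose, held 3 GC-boxes, and the windows of Clcn5, which also rose, held 1 and 0. Rab7a and Dab2, which were not called, held 1 and 0, at 63.0% and 47.3% G or C. A link of these words with the levels was not tested. Such matches describe letters in a window only.

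Dab2 (ENSRNOG00000028930) encodes an adaptor that links the tail of megalin to clathrin. It stood at 724, 560 and 667 CPM in CIAKI libraries, against 784, 649 and 859 CPM in control libraries. The groups overlapped, and the log2 fold change was -0.23 with a 95% interval of -0.52 to 0.06 (adjusted p = 0.182).

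The endosomal pair moved in opposite directions and by less. Clcn5 (ENSRNOG00000002862) stood at 136, 140 and 154 CPM in CIAKI libraries, against 118, 111 and 120 CPM in control libraries. All CIAKI values were above all control values, and Clcn5 rose by 0.30 on the log2 scale (SE 0.07, adjusted p = 0.0118). The call ended with upper-quartile scaling, at 0.22 and an adjusted p of 0.0646. Ocrl (ENSRNOG00000003875), whose product removes the 5-phosphate of inositol lipids on coated pits and early endosomes, stood at 16.3, 14.6 and 15.6 CPM in CIAKI libraries. Control libraries held 19.5, 20.3 and 19.5 CPM, all higher. The log2 fold change was -0.33 (SE 0.09, adjusted p = 0.0128), and the shallowest Ocrl value rested on 983 reads.

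Rab11a (ENSRNOG00000011302), a GTPase that returns megalin and cubilin from recycling endosomes to the apical membrane, stood at 160, 157 and 138 CPM in CIAKI libraries. It stood at 118, 123 and 112 CPM in control libraries, so the groups did not overlap (log2 fold change 0.36, SE 0.08, adjusted p = 0.00602). Rab7a (ENSRNOG00000012247), which serves late endosomes and fusion with lysosomes, stood at 407, 387 and 412 CPM in CIAKI libraries, against 420, 405 and 411 CPM in control libraries. These ranges overlapped, with a log2 fold change of -0.04 and a 95% interval of -0.18 to 0.11 (adjusted p = 0.689). The Rab11a/Rab7a ratio was 0.393, 0.406 and 0.335 in CIAKI libraries, against 0.28, 0.303 and 0.273 in control libraries (1.32-fold higher, exact permutation p = 0.1, adjusted 0.15). Reads shared with near-identical copies were counted in a way not given in the sources used here, which makes Rab11a and Rab7a, members of a large family, less certain.

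Within the CIAKI group Lrp2, Amn and Lrpap1 ran in the order of the proximal tubule markers. The summed proximal tubule markers were 12031 CPM in CIAKI 1, 13283 CPM in CIAKI 2 and 14917 CPM in CIAKI 3, the order of these 3 genes and of Clcn5, which rose. Cubn and Rab11a ran in the reverse order, and Dab2, Ocrl and Rab7a in neither. Havcr1, which encodes the injury marker KIM-1, stood at 742, 419 and 229 CPM in CIAKI 1, 2 and 3, against 1.25, 1.08 and 0.529 CPM in control libraries. Slc34a1, the sodium-phosphate cotransporter of the segment, differed by -2.27 (SE 0.17, adjusted p = 4.66e-05) on the log2 scale between CIAKI and control. With 3 libraries in the group these orders are a description.

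**Figure D3:**
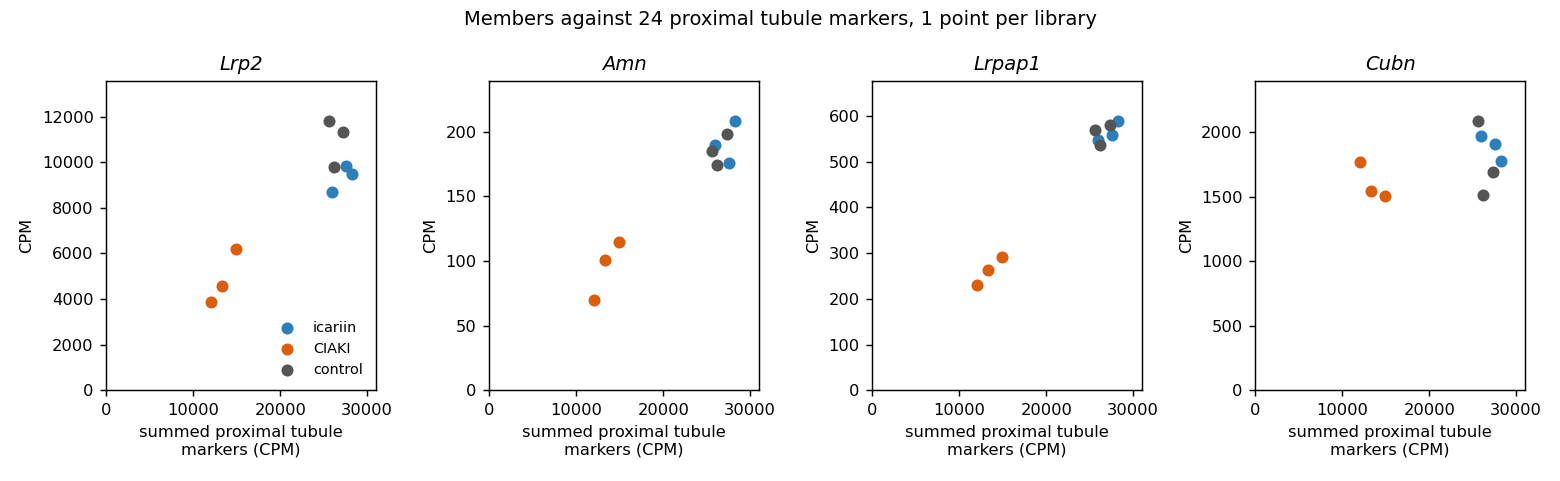
Level of Lrp2, Amn, Lrpap1 and Cubn in CPM (vertical axes, from 0) against the summed CPM of 24 proximal tubule markers (horizontal axes, from 0), with 1 point per library in the icariin, CIAKI and control groups. The CIAKI libraries lie apart at 12031 to 14917 CPM of markers with low Lrp2, Amn and Lrpap1, while their Cubn values lie within the height of the other libraries or just under it.

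Icariin kidneys were then set against CIAKI kidneys, which went through the same contrast protocol without icariin ahead of it. Whether CIAKI rats had a vehicle or sham dosing in its place is not recorded here. Lrp2, Amn, Lrpap1 and Ocrl were higher and Clcn5 and Rab11a lower in icariin than in CIAKI kidneys. As the CIAKI libraries enter both comparisons, opposite directions arise in part by construction, and the values are given side by side without a test of the pattern. Of the 9 genes, 6 were called (4 higher and 2 lower), against 39.4% of all features (19.2% higher and 20.2% lower). The groups did not overlap for 7 of 9 genes, against 50.7% of features, and the median log2 fold change was 0.23, against 0.017 over all features. At an unadjusted p below 0.05 the count was 6, against 48.8% of features.

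Lrp2 stood at 8717, 9473 and 9849 CPM in icariin libraries, against 3877, 4572 and 6196 CPM in CIAKI libraries. Every icariin value was above every CIAKI value, and the icariin mean of 9346 ± 576 CPM (SD, n = 3) was 0.935% of reads. The log2 fold change was 0.96 (SE 0.21, adjusted p = 0.00682). Amn stood at 190, 208 and 175 CPM in icariin libraries, against 69.7, 101 and 115 CPM in CIAKI libraries (log2 fold change 1.03, SE 0.16, adjusted p = 0.00138). Lrpap1 stood at 546, 588 and 558 CPM in icariin libraries, against 229, 263 and 291 CPM in CIAKI libraries (1.12, SE 0.09, adjusted p = 8.21e-05). In neither gene did the groups overlap.

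Levels of these 3 genes can be set against each other per length, since the authors' table of selected mRNAs gives FPKM (fragments scaled by transcript length and library total) for icariin and CIAKI libraries. That table, named for differentially expressed mRNAs, holds 3 of the 9 genes. A difference in FPKM between the groups is therefore one of genes already selected. Lrp2 stood at 474 ± 33.6 FPKM in icariin and 242 ± 63.1 FPKM in CIAKI libraries (SD, n = 3 each). Lrpap1 stood at 150 ± 4.998 and Amn at 85.4 ± 6.15 FPKM in icariin libraries, against 67.7 ± 9.32 and 41.7 ± 10.9 FPKM in CIAKI libraries. Per length, the level of megalin RNA was 5.17 to 6.37 times that of amnionless RNA in icariin libraries and 5.16 to 6.30 times in CIAKI libraries. It was 3.05 to 3.37 times that of the chaperone in icariin libraries and 3.23 to 4.07 times in CIAKI libraries. The order megalin, chaperone, amnionless held in all 6 libraries.

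Cubn stood at 1968, 1774 and 1909 CPM in icariin libraries, against 1768, 1541 and 1503 CPM in CIAKI libraries. The groups were separated by a narrow gap, yet the log2 fold change of 0.23 did not pass (95% interval -0.07 to 0.54, adjusted p = 0.195). The Lrp2/Cubn ratio was 4.43, 5.34 and 5.16 in icariin libraries, against 2.19, 2.97 and 4.12 in CIAKI libraries, 1.66-fold higher with no overlap (exact permutation p = 0.1, adjusted 0.15). The Amn/Cubn ratio was 0.0965, 0.117 and 0.0919 in icariin libraries, against 0.0394, 0.0652 and 0.0765 in CIAKI libraries, 1.74-fold higher with the same p-values. Between icariin and CIAKI the ratios of Lrpap1 and Amn to Lrp2 overlapped, with differences of 0.16 and 0.07 on the log2 scale (exact permutation p = 0.3 and 1.0), and the Rab11a/Rab7a ratio, at 0.287, 0.300 and 0.296 in icariin libraries, was 1.28-fold lower with no overlap (p = 0.1, adjusted 0.15). Dab2, the adaptor gene, stood at 691, 784 and 755 CPM in icariin libraries, overlapping with 560 to 724 CPM in CIAKI libraries. Its log2 fold change of 0.20 did not pass (95% interval -0.09 to 0.49, adjusted p = 0.248).

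Clcn5 stood at 90.3, 97.0 and 103 CPM in icariin libraries, against 136, 140 and 154 CPM in CIAKI libraries. The groups lay apart, and the fitted difference was -0.56 on the log2 scale (SE 0.07, adjusted p = 0.000655). Ocrl stood at 19.8, 20.7 and 18.7 CPM in icariin libraries, against 16.3, 14.6 and 15.6 CPM in CIAKI libraries (0.33, SE 0.09, adjusted p = 0.0144). The groups did not overlap, but the Ocrl call ended without icariin 2, at 0.30 and an adjusted p of 0.0576. Rab11a stood at 106, 121 and 114 CPM in icariin libraries, against 160, 157 and 138 CPM in CIAKI libraries (-0.41, SE 0.08, adjusted p = 0.00347). Rab7a stood at 369, 403 and 384 CPM in icariin libraries, overlapping with 387 to 412 CPM in CIAKI libraries (-0.06, 95% interval -0.20 to 0.08, adjusted p = 0.48).

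**Figure D4:**
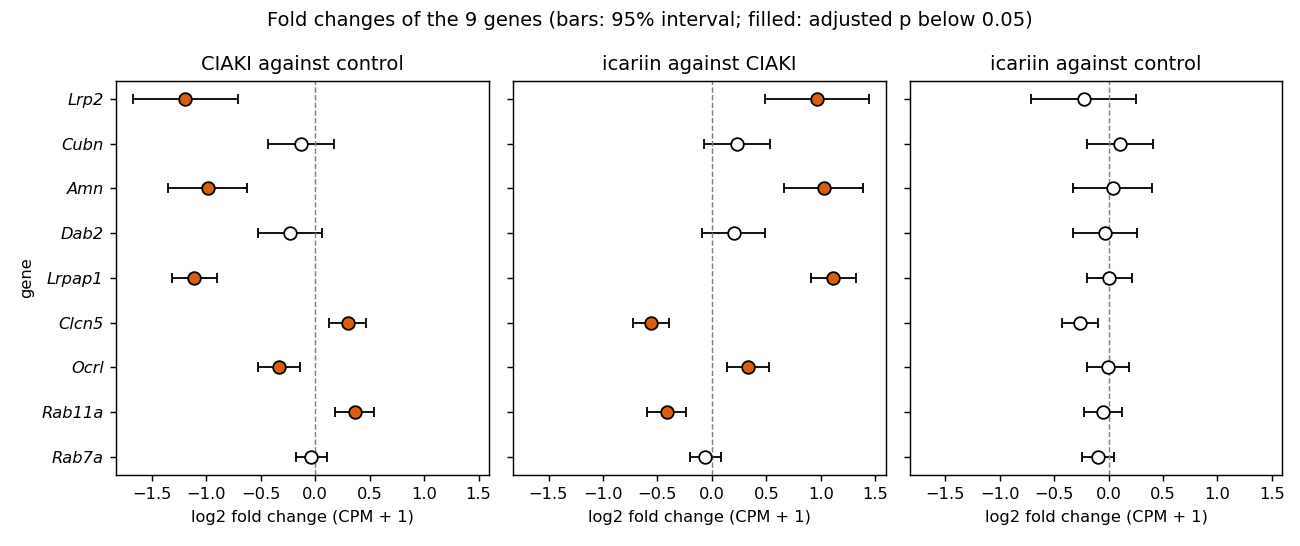
Log2 fold change on the log2(CPM + 1) scale (horizontal axes) of the 9 genes (rows) for CIAKI against control, icariin against CIAKI and icariin against control; bars are 95% intervals and filled points have an adjusted p below 0.05. In the first panel 4 genes are filled on the left and 2 on the right, in the second 4 on the right and 2 on the left, and in the third no point is filled.

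Last, icariin kidneys were set against control kidneys. None of the 9 genes was called by limma, and 1, Clcn5, had an unadjusted p below 0.05, against 10.2% of features. By edgeR and by DESeq2 on recovered reads 0 genes were called as well, and among all features limma called 0.628%. The groups did not overlap for 2 of 9 genes, against 19.3% of features, and these were Clcn5 and Rab7a, both lower in icariin libraries. Clcn5 stood at 90.3, 97.0 and 103 CPM in icariin libraries, against 118, 111 and 120 CPM in control libraries (log2 fold change -0.26, 95% interval -0.43 to -0.09, unadjusted p = 0.0063, adjusted p = 0.206). Its order of levels was thus CIAKI, control, icariin, with no overlap between any of the groups.

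Lrp2 stood at 8717, 9473 and 9849 CPM in icariin libraries, against 11338, 9795 and 11793 CPM in control libraries. Only icariin 3 and control 2 crossed, and the log2 fold change of -0.23 had a 95% interval of -0.71 to 0.25 (adjusted p = 0.815). With quantile normalization it was 0.13. The Lrp2/Cubn ratio was 4.43, 5.34 and 5.16 in icariin libraries, against 6.70, 6.48 and 5.66 in control libraries, 1.26-fold lower with no overlap (exact permutation p = 0.1, adjusted 0.15). The Lrpap1/Lrp2 ratio was 0.0627, 0.0621 and 0.0567 in icariin libraries, against 0.0512, 0.0549 and 0.0483 in control libraries, 1.18-fold higher. The Amn/Lrp2 ratio was 0.0218, 0.0219 and 0.0178 in icariin libraries, against 0.0175, 0.0178 and 0.0157 in control libraries, 1.20-fold higher. Neither overlapped between the groups, icariin 3 lying closest to the control range, and both had the same p-values as Lrp2/Cubn. For Amn/Lrp2 the gap was very small, from 0.01781 in icariin 3 to 0.01777 in control 2. Amn (0.04, interval -0.32 to 0.40) and Lrpap1 (0.0053, interval -0.20 to 0.21) had fitted values near 0, and Ocrl had a fitted value of -0.0037 (interval -0.20 to 0.19). Those of Cubn, Dab2, Rab11a and Rab7a were 0.11, -0.03, -0.05 and -0.10, with adjusted p-values of 0.703 to 0.972.

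Beyond the 9 genes, 7 lists of 120 genes of the endocytic route were examined, of which 116 were matched by symbol and 113 tested. In CIAKI kidneys 22 rose and 20 fell (37.2% called, against 41.3% of all features), with a median log2 fold change of 0.04. With upper-quartile scaling 16 rose and 28 fell, against 2945 and 4093 of all features, and without control 1 the counts were 14 and 18. In icariin against CIAKI kidneys 18 were higher and 22 lower (35.4%, against 39.4%), with a median of -0.03. Upper-quartile scaling turned that balance to 25 higher and 15 lower, against 3887 and 2911 of all features. Between icariin and control kidneys limma called 0 of 113, with 10 at an unadjusted p below 0.05, and edgeR called 0 and DESeq2 3. Over all 16731 features limma called 105, edgeR 76 and DESeq2 523, and 1704 had an unadjusted p below 0.05. The shares were close to the background, and the lists held genes moving in both directions.

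Among 13 tested partners and adaptors of the receptors, 1 rose and 3 fell in CIAKI kidneys. Gipc1, a PDZ protein that binds the megalin tail and myosin VI, rose to 65.8 CPM in CIAKI, against 42.1 CPM in control (log2 fold change 0.61, SE 0.15, adjusted p = 0.00957). The scaffold gene Mapk8ip1 lay at -0.47 and Dab1, the neuronal relative of Dab2, at -0.79 from 0.599 CPM in CIAKI and 1.74 CPM in control. Of 19 genes of the clathrin coat and of vesicle scission 5 rose and 1 fell. The uncoating chaperone gene Hspa8 rose by 0.56 (1387 CPM in CIAKI, 938 CPM in control), the uncoating kinase gene Gak by 0.40 and Fcho2, which nucleates coated pits, by 0.39. In icariin kidneys Hspa8 stood at 1173 CPM, and its difference from CIAKI did not pass (-0.24, adjusted p = 0.0788). Against CIAKI, Fcho2 did not pass either (-0.19, adjusted p = 0.0639), while Gak was lower in icariin kidneys (-0.33, adjusted p = 0.00248).

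Of 27 tested genes of early, recycling and late endosomes 4 rose and 3 fell in CIAKI kidneys. Rab11fip3, an effector of Rab11, fell while Rab11a itself rose: Rab11fip3 stood at 134, 170 and 194 CPM in CIAKI libraries, against 301, 328 and 348 CPM in control libraries (-0.98, SE 0.12, adjusted p = 0.000429). In icariin libraries it stood at 333, 359 and 361 CPM (1.09 against CIAKI, adjusted p = 0.000318). Ehd1, an ATPase of the recycling compartment, fell by 0.68, and Plekhm1, an effector of Rab7 in lysosome fusion, rose by 0.61. Of 18 genes of acidification and ion exchange 4 rose and 5 fell. Slc9a3, the sodium-proton exchanger NHE3 of brush border and endosomes, stood at 79.4, 103 and 102 CPM in CIAKI libraries, against 216, 240 and 229 CPM in control libraries (-1.27, SE 0.12, adjusted p = 9.9e-05). In icariin libraries it stood at 310, 271 and 246 CPM.

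Relatives of Clcn5 were lower or did not pass the test. Clcn6, a chloride-proton exchanger of late endosomes, stood at 60.7, 48.0 and 56.5 CPM in CIAKI libraries, against 153, 140 and 162 CPM in control libraries (-1.45, SE 0.15, adjusted p = 0.000177). In icariin libraries Clcn6 stood at 97.9, 152 and 129 CPM. Named after their values were seen, Clcn4 fell by 0.94 (adjusted p = 0.0185), and Clcn3 and Clcn7 lay at 0.16 and 0.07 (adjusted p = 0.116 and 0.531). The proton pump subunit gene Atp6v1e1 rose by 0.335. Of 15 phosphoinositide enzymes 3 rose and 4 fell. Inpp5j, a 5-phosphatase like OCRL, fell by 1.26 (12.04 CPM in CIAKI, 29.8 CPM in control), and Pip5k1c, which makes the OCRL substrate, and the leukocyte phosphatase gene Inpp5d fell by 0.73 and 0.68. The close OCRL relative Inpp5b, named after its value was seen, rose by 0.29 (adjusted p = 0.0486).

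In the receptor family of megalin, 1 of 11 tested genes rose and 3 fell in CIAKI kidneys. Lrp8, the reelin and apolipoprotein E receptor, stood at 25.8, 20.1 and 9.55 CPM in CIAKI libraries, against 1.27, 2.46 and 2.44 CPM in control libraries (2.60, SE 0.33, adjusted p = 0.000419). Its CIAKI values ran opposite to those of Lrp2, highest in CIAKI 1 and lowest in CIAKI 3. In icariin libraries Lrp8 stood at 1.70, 1.88 and 1.25 CPM (-2.80 against CIAKI, adjusted p = 0.000351). The genes Lrp3 and Vldlr fell by 0.53 and 0.52. Against CIAKI, Lrp3 was higher in icariin kidneys (0.47, adjusted p = 0.0338) and Vldlr did not pass (0.22, adjusted p = 0.211). Vldlr stood at 44.2 CPM in icariin, 38.2 CPM in CIAKI and 54.5 CPM in control kidneys. Of 10 tested genes that handle ligands, 4 rose and 1 fell. Tcn2, which encodes the vitamin B12 carrier transcobalamin, a ligand of megalin, stood at 100.0, 131 and 132 CPM in CIAKI libraries, against 226, 237 and 288 CPM in control libraries (-1.04, SE 0.13, adjusted p = 0.000438). In icariin libraries it stood at 264, 247.5 and 221 CPM. Scarb1, a lipoprotein receptor, and Scarb2, a lysosomal membrane protein, rose by 0.74 and 0.32. In icariin against CIAKI kidneys Scarb1 was lower (-0.76, adjusted p = 0.00199) and Scarb2 did not pass (-0.17, adjusted p = 0.129).

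**Figure D5:**
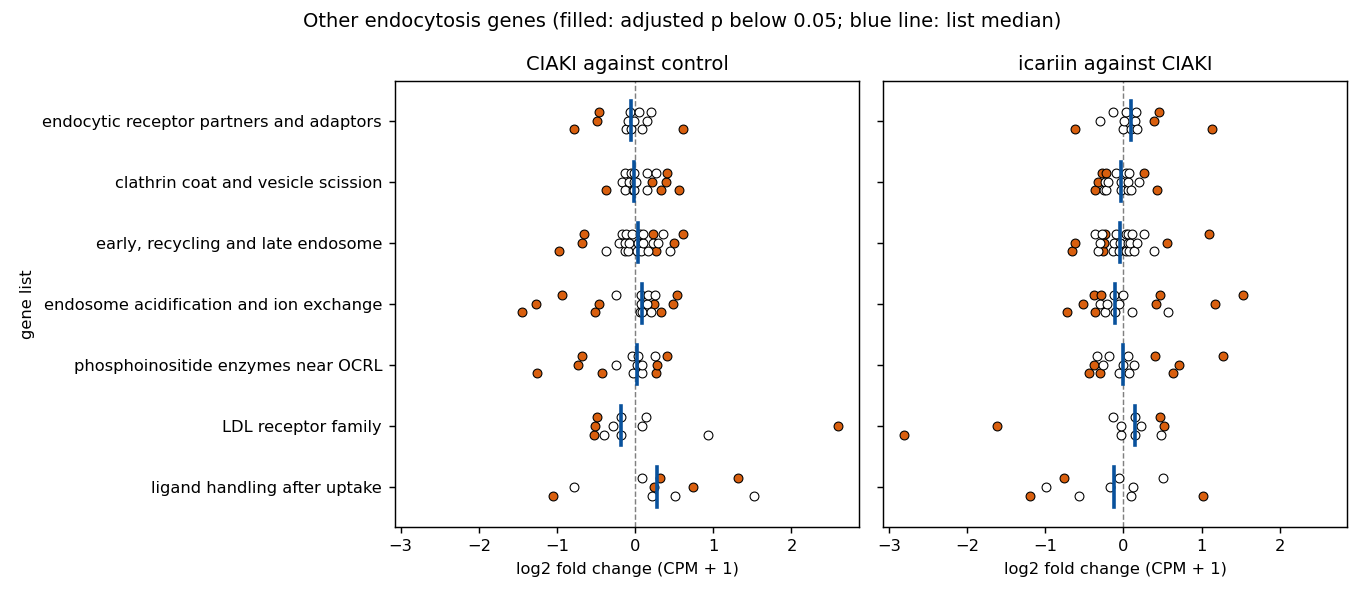
Log2 fold change on the log2(CPM + 1) scale (horizontal axes) of each tested gene of 7 lists (rows) in CIAKI against control and icariin against CIAKI; filled points have an adjusted p below 0.05 and the blue line is the median of a list. Medians lie between -0.18 and 0.28 in the first panel and between -0.12 and 0.14 in the second, with called genes on both sides of 0, and Lrp8 is the far point at 2.60 and -2.80.

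The genes most like Lrp2 over the 9 libraries, by Pearson correlation of log2(CPM + 1) among 12387 named genes, were Plcb1, Dmxl2, Klhl25, Metrn and C2cd2l, each at 0.99. Plcb1, a phospholipase C, stood at 92.7 ± 8.17 CPM in icariin, 53.5 ± 10.8 CPM in CIAKI and 116 ± 5.04 CPM in control kidneys (SD, n = 3 each). Dmxl2, which acts on the vacuolar proton pump, stood at 282 ± 11.2, 223 ± 23.98 and 303 ± 14.2 CPM in icariin, CIAKI and control kidneys. Genes most like Cubn were Tom1 (0.94), which encodes an endosomal sorting protein, Bicra (0.89), Cysrt1 (0.87), Sulf1 (0.86) and Ficd (0.85). Lrp2 differed between CIAKI and the other groups while Cubn was called in no comparison, so closeness cannot be compared between them. The 9 libraries fall into 3 treatment groups and are not independent points, so these values are a description without a test.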

How the data were processed

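Per the labels' protocols, kidneys were flash frozen, RNA was taken with Trizol and libraries were made with an Illumina TruSeq kit. The submitters' processing notes name Bowtie 0.12.2 and mm8. That is a mouse build, whereas gene identifiers in the tables are those of rat, so the reference is not settled. Counter, annotation and strand handling were not given in the sources used here. For all genes, the authors deposited CPM. Whole reads were recovered for 100.0% of its values (within 0.1 of a whole number), and they equalled all 23850 deposited read counts of selected mRNAs. The same table of selected mRNAs holds FPKM, per the file headers.

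limma 3.58.1 with an intensity trend was fitted to log2(CPM + 1) of the 16731 features that reached 1 CPM in 3 or more of 9 libraries, with group as factor, two-sided, and p-values adjusted by Benjamini-Hochberg over all features within a comparison. Fold changes on this scale understate those of low genes. Per the series design, the 3 libraries of a group come from 3 rats. Alternatives were edgeR 4.0.16 (quasi-likelihood) and DESeq2 1.42.0 on recovered reads, other pseudocounts, filters and scalings, a replicate block and leaving out each library. Ratios were tested by exact permutation (scipy 1.17.1). The fit was also run on simulated data with few changed features and an equal spread in all groups. Those settings differ from these data, so that run does not bear on the calls here. The members and lists were chosen with earlier results of these data known. Named genes were the 9 members, Havcr1, Slc34a1, up to 3 called genes per list with the smallest p in CIAKI against control (2 more in icariin against control, where none was called; mean of at least 1 CPM), and the 5 genes most correlated with Lrp2 and with Cubn. The authors' tables of lncRNAs, circRNAs and miRNAs were not used here.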

Additional observations from a re-analysis of the deposited data

How the results depend on the processing

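Each of the 27 log2 fold changes was recomputed under 20 alternatives. The count of called genes was 5 or 6 of 9 in CIAKI against control, 5 or 6 in icariin against CIAKI and 0 in icariin against control under every alternative, and leaving out single libraries gave 6 to 6, 5 to 6 and 0 to 0. The calls that ended were those of Clcn5 in CIAKI against control with upper-quartile scaling (0.22) and of Ocrl in icariin against CIAKI without icariin 2 (0.30). Uncalled values changed sign in 15 cases, and none became a call. In icariin against control, Lrp2 went to 0.13, against -0.23 as reported, and Lrpap1 to -0.0272 with quantile normalization, Lrpap1 was -0.00081 with upper-quartile scaling, and Ocrl was 0.0015 with TMM and 0.0016 with edgeR. Leaving out single libraries gave ranges of -0.0229 to 0.10 for Amn, -0.0271 to 0.0284 for Lrpap1, -0.0372 to 0.0326 for Ocrl and -0.14 to 0.0572 for Dab2 in that comparison. Cubn in CIAKI against control ranged from -0.23 to 3.7e-05. Rab7a in icariin against CIAKI was 0.0059 with upper-quartile scaling. The cause was not tested.

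Over all features, the 105 calls in icariin against control became 52 without a filter and 523 with DESeq2, and 31 to 127 when single libraries were left out, 31 without control 2, control 3 or icariin 2, 38 without control 1, 41 without icariin 3 and 61 without icariin 1. Labels give the groups equal replicate numbers. Deviations of same-numbered libraries from their group means had correlations of -0.03 to 0.08, and 5 of 9 libraries matched their own number best. Without a reference from differently numbered libraries, these values do not settle whether the replicate numbers pair the libraries. With these numbers as a replicate block the counts were 6678, 6314 and 73 features, against 6903, 6592 and 105, and 6, 6 and 0 of the 9 genes. Depth limits Ocrl most among the 9 genes, at 983 to 1692 reads per library.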
